A study of Mus musculus with 8 samples.

Results

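The 9 genes described here, Clec4a1, Clec4a2, Clec4a3, Clec4d, Clec4e, Clec4n, Clec5a, Clec7a and Clec12a, encode C-type lectin receptors of myeloid cells. A locus was taken as the gene body in the GENCODE annotation of the mm10 mouse genome plus 20 kb to either side, and a peak belonged to a locus when its centre lay inside. All 9 genes lie on chromosome 6, and their windows covered 430 kb in 6 stretches. Of the 67673 peaks called in the series, 63 fell into these windows, in 31 separate regions. The windows of Clec4n, Clec4d and Clec4e overlap, as do those of Clec4a1 and Clec4a3, so some peaks are counted for more than 1 gene, but only once in the totals.

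The study used X18.1.1, a murine AML cell line that arose after irradiation. These cells make no wild-type PU.1 of their own, since 1 Pu.1 copy is missing and the protein from the other is altered where it contacts DNA and in its PEST region. The cells were transduced with an empty vector (EV) or with PuER, in which wild-type PU.1 is fused to an oestrogen receptor domain that 4-hydroxytamoxifen (OHT) activates. Each condition was a single clone, both received 100 nM OHT for 2 h, and both still carried the mutant Pu.1 allele, so that PU.1 peaks of the EV clone were obtained without wild-type PU.1. Clone and transgene cannot be told apart in this design. Chromatin was precipitated with an antibody against PU.1 or against CEBPA (CCAAT/enhancer-binding protein alpha), giving 4 libraries with 1 library per antibody and clone. No test between the clones was therefore possible, and 95% intervals for shares, by the exact Clopper-Pearson method, reflect counting error alone. The PU.1 list held 5288 peaks in the EV clone and 15683 in the PuER clone, and the CEBPA list held 26119 and 20583. The deposited lists give the position of each 400-bp peak and no height or read count. The depth is thus unknown, and a peak that was not called does not show that the factor was absent.

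PU.1 is an ETS-family transcription factor needed for the formation of macrophages and granulocytes. It binds DNA around a GGAA core, often preceded by a run of purines, while CEBPA, its frequent partner at myeloid genes, binds as a dimer to sites such as TTGCNNAA. Myeloid C-type lectin receptors sense fungal, mycobacterial and self ligands. Some signal inward through an inhibitory motif (ITIM) in their own tail, others through the adaptor chains FcR gamma or DAP12, and Dectin-1 through a single-tyrosine activating motif (hemITAM), the activating forms converging on the kinase Syk.

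Peaks of 1 antibody that overlapped by at least 1 bp were treated as shared between the clones, and all others as called in that clone only. In the PuER clone a PU.1 peak absent from the EV list lay within 20 kb of 9 of 9 lectin genes, against 36.7% of 21951 protein-coding genes. Within 1 kb of an annotated transcript start, 8 of 9 genes had such a peak (88.9%, 95% interval 51.8 to 99.7), against 6.02% of protein-coding genes. Clec4d was the exception. The centre was within 250 bp of the start for 7 of these peaks, a distance at which 2.80% of protein-coding genes had such a peak. The start-site distance was examined after the positions of the peaks had been seen, and GENCODE lists Clec7a as a polymorphic pseudogene, so that it is not among the protein-coding genes. The members were also chosen with earlier results of these data known, and the interval does not cover that choice. Of 8 neighbouring lectin genes outside the set, 0 had such a peak within 1 kb of a start.

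The sequences at these start sites had a feature in common. The 9 bases AAAGAGGAA were found near the start of 8 of the 9 genes, 9 times in all, and in every case on the strand opposite to that of the gene. They are shown for 7 of these genes, because the members share them. Each line is read 5′ to 3′ along the strand of the site, from mm10, with 10 bases to either side and the 9 bases in capitals. For Clec7a, where GAGGAA was preceded by other bases and lay on the strand of the gene, the corresponding stretch is given. The last line is Clec4a4, a neighbouring gene without a peak.
Clec4a2, first site (chr6:123123260-123123288): gaaggaggagAAAGAGGAAccatgctatt
Clec4a2, second site (chr6:123123276-123123304): ggaaggaaagAAAGAGGAAggaggagaaa
Clec4a3 (chr6:122952584-122952612): aaggaatgaaAAAGAGGAAccagggcatt
Clec12a (chr6:129350187-129350215): aataagattgAAAGAGGAAcacttttctt
Clec4a1 (chr6:122921621-122921649): aggaaaggaaAAAGAGGAAccaggcatta
Clec4d (chr6:123262104-123262132): cacagggagcAAAGAGGAAaaggaaattg
Clec4n (chr6:123229798-123229826): aagacatgggAAAGAGGAAattgagaaac
Clec5a (chr6:40585842-40585870): ggcggggcaaAAAGAGGAAgggaacttct
Clec7a (chr6:129472860-129472888): gaaacaggatCTAGAGGAAaaaagggaaa
Clec4a4 (chr6:122990037-122990065): aaggagaagaAAAGAGGAAccatgctatt

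Promoter sequences from RefSeq (GRCm38.p6, 250 bases before to 50 after the start) were held for 8 of the 9 genes, all but Clec4n. AAAGAGGAA, searched on both strands, occurred in the promoters of 6 of these 8 (Clec4a1, Clec4a3, Clec4d, Clec4e, Clec5a and Clec12a), against 1.55% of 16539 protein-coding genes. Over all RefSeq promoters, 54.5% of 466 such sequences lay on the strand opposite to the gene. The shorter GAGGAA, which AAAGAGGAA contains, was in the promoters of 7 of the 8 genes, against 5009 of the 16539 protein-coding genes. The Clec4 genes are related by descent and lie side by side, so their promoters are not independent of each other. The 9-base sequence was also chosen after the members' sequences had been read, and its share is a description of these genes.

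**Figure D1:**
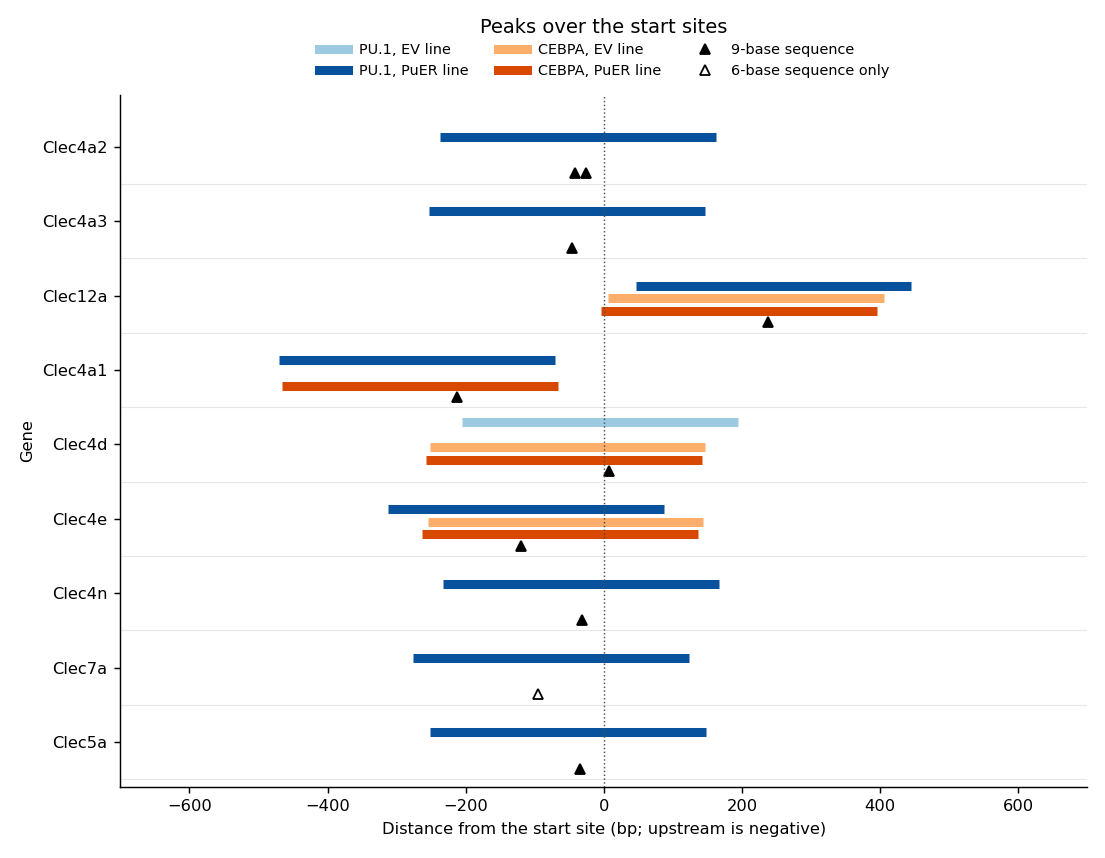
Peaks over the start sites of the 9 genes, with the distance from the start in bp on the horizontal axis (upstream negative) and 1 row per gene. Bars are 400-bp peaks, coloured by antibody and clone, filled triangles mark AAAGAGGAA and the open triangle GAGGAA alone. The start drawn for each gene was the GENCODE start nearest to a PU.1 peak of the PuER clone. A PuER-clone PU.1 peak without an EV counterpart stood at 8 of 9 starts, and Clec4d had an EV-clone PU.1 peak in its place.

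Among the genes with an inhibitory tail, Clec4a2, which encodes the ITIM-bearing receptor DCIR, had 0 PU.1 peaks in the EV clone and 1 in the PuER clone. This peak (chr6:123123079-123123478) had its centre at −37 bp from a GENCODE start inside the gene body, but at 589 bp from the RefSeq start. The gene is the longest of the members at 37572 bp. Its CEBPA peaks numbered 2 in the EV clone and 1 in the PuER clone, and the shared one lay in an intron, 3081 bp downstream of the nearest start. PU.1 and CEBPA peaks of Clec4a2 thus did not overlap.

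Clec4a3, a close relative of Clec4a2 in the same cluster, had a single peak in the 4 libraries. It was a PU.1 peak of the PuER clone at −53 bp (chr6:122952391-122952790). The EV clone had 0 PU.1 peaks there, and both CEBPA libraries had 0 peaks.

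Clec12a encodes an inhibitory receptor that is also used as a surface marker of AML cells, and it had 1 PU.1 peak in the EV clone and 3 in the PuER clone. The PuER-only peak nearest to a start (chr6:129350010-129350409) was centred 246 bp downstream of a GENCODE start and at −34 bp from the RefSeq start. It overlapped a CEBPA peak that was called in both clones, with CEBPA centres at 206 bp in the EV clone and 196 bp in the PuER clone. CEBPA was thus called at this start in both clones and PU.1 only in the PuER clone. A second region, in an intron, held peaks of all 4 libraries, and here the centre of the PU.1 peak differed by 71 bp between the clones. Its PU.1 peaks also lay within 1 kb of a further GENCODE start, at −901 bp in the EV clone and −830 bp in the PuER clone. The PU.1 and CEBPA centres of the same clone lay 72 bp apart in the EV clone and 20 bp apart in the PuER clone. Of 5 CEBPA peaks in the EV clone and 3 in the PuER clone, 2 were called only in the EV clone.

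Clec4a1, a further relative of Clec4a2 at the edge of the cluster, had 0 peaks in either EV library. In the PuER clone PU.1 was called at −270 bp (chr6:122921378-122921777) and CEBPA at −266 bp, so the centres were 4 bp apart. This was the only start site among the 9 where both factors were called in the PuER clone and neither in the EV clone. Its second PU.1 peak is the start-site peak of Clec4a3. The 9-base sequence of Clec4a1 lay at −213 bp, 57 bp from the PU.1 centre, whereas in the other 7 PuER-only start-site peaks the nearest GAGGAA was at most 17 bp from the centre.

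The receptors that act through FcR gamma, Clec4e (Mincle, a receptor for mycobacterial cord factor), Clec4d (MCL, which pairs with Mincle) and Clec4n (Dectin-2, which binds fungal mannans), lie side by side. At the Clec4e start, a PuER-only PU.1 peak was centred at −113 bp. CEBPA was called there in both clones, at −56 bp in the EV clone and −64 bp in the PuER clone. The 2 EV-clone PU.1 peaks counted for Clec4e both belong to Clec4d, which lies next to it.

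Clec4d differed from the other members. Its window held 4 PU.1 peaks in the EV clone, 3 in the PuER clone, and 7 and 8 CEBPA peaks, respectively. At its start PU.1 was called only in the EV clone, at −5 bp (chr6:123261906-123262305), on top of a CEBPA peak of both clones centred at −52 and −57 bp. Such an EV-only PU.1 peak within 1 kb of a start was found for 1 of 9 members and for 4.51% of protein-coding genes. A further EV-only PU.1 peak was centred in a coding exon of Clec4d (chr6:123266928-123267327), again over a CEBPA peak of both clones. It lay at −594 bp from a second GENCODE start of the gene. The AAAGAGGAA of Clec4d lay 12 bp from the centre of the EV-clone peak. The only PuER-only PU.1 peak within 20 kb of Clec4d is that at the start of Clec4e, so that the gene had none of its own.

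Between Clec4n and Clec4d, at −9058 bp from the Clec4d start in the PuER clone, PU.1 was called in both clones with centres 4 bp apart, over CEBPA peaks of both clones. The centre of the PuER-clone peak is printed here as a shared site to set beside the start sites, along the strand of the gene with GGAA (or TTCC, its reverse complement) in capitals. These central 80 bp hold GGAAGT, read as ACTTCC on this strand, and no GAGGAA. Further from the centre, the same 400-bp peak held 1 GAGGAA and 1 AAAGAGGAA.
Clec4d, shared PU.1 peak (chr6:123253013-123253092): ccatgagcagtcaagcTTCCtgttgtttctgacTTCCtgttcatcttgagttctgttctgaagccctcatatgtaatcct

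Clec4n had 4 PU.1 peaks in each clone. The PuER-only peak was that at its start, at −33 bp (chr6:123229610-123230009), and the EV-only one is in Clec4d. The other PU.1 peaks were shared between the clones, at −2180 bp and, in an intron, 14353 bp in the EV clone and between Clec4n and Clec4d. At the first and second of these, CEBPA was called only in the PuER clone, with centres 245 and 111 bp from the PU.1 centre of that clone. Clec4n was thus the member at which CEBPA peaks called only with PuER lay beside PU.1 peaks present in both clones.

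Clec7a encodes Dectin-1, the beta-glucan receptor that signals through its hemITAM, and had 0 PU.1 peaks in the EV clone and 1 in the PuER clone. This peak was centred at −77 bp (chr6:129472656-129473055). The 2 CEBPA peaks of each clone were shared, at −5794 bp and 1206 bp in the EV clone, and did not overlap the PU.1 peak. The nearest PuER-clone PU.1 peak that was left out lay 22308 bp from the gene, just beyond the window, while the outermost peak that was not nearer to another member lay 16545 bp from Clec12a.

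Clec5a encodes a receptor that associates with DAP12, and it lies apart from the other members on the same chromosome. It had 1 PU.1 peak in the EV clone and 5 in the PuER clone, the most of any member. Of these, 4 were called only in the PuER clone, at −52 bp (chr6:40585673-40586072), −4096 bp, −9130 bp and, past the end of the gene and outside the coding sequence in an exon of Olfr460, 12017 bp from the start. That at −9130 bp overlapped a CEBPA peak of both clones. The remaining PU.1 peak, 9246 bp from the start in a non-coding part of a Clec5a exon, was shared and lay in a region with peaks of all 4 libraries. At −4096 bp GAGGAA occurred in tandem, and the central 80 bp are printed for this reason, along the strand of the gene with each GGAA or TTCC in capitals.
Clec5a, PuER-only PU.1 peak (chr6:40589877-40589956): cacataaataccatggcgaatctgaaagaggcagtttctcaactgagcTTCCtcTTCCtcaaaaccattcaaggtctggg

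**Figure D2:**
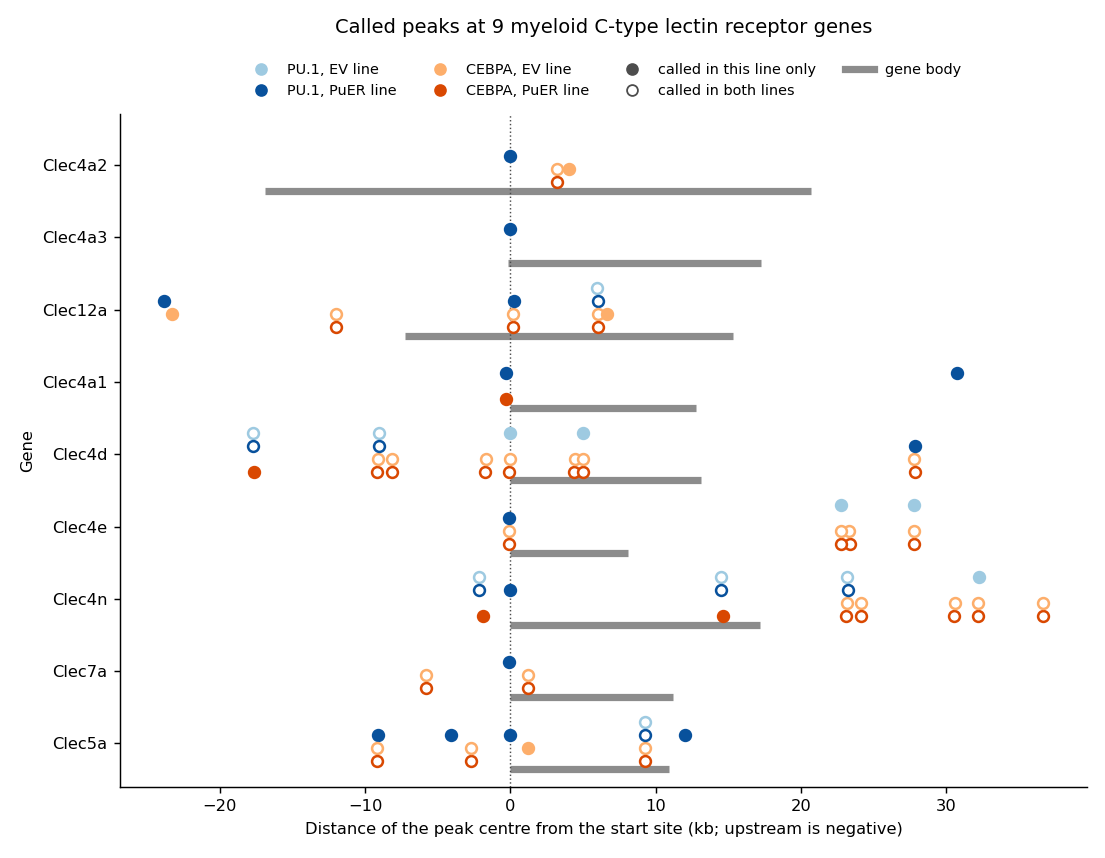
Positions of the peaks of all 4 libraries at each gene, as the distance of the peak centre from the start site in kb (upstream negative), with 1 row per gene and the gene body in grey. Filled circles were called in 1 clone only and open circles in both, and peaks in overlapping windows appear in each row. The start drawn for each gene was the GENCODE start nearest to a PU.1 peak of the PuER clone. This choice favours PU.1 peaks of that clone at the start, so the distances of PU.1 and CEBPA are not compared. PuER-only PU.1 peaks stood at most of these starts, and the CEBPA peaks were mostly open circles.

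Over all members, 12 of 17 PU.1 peaks of the PuER clone were absent from the EV list (70.6%, 44.0 to 89.7), an interval that includes the share of the whole list, 81.1%. In the EV clone 2 of 7 PU.1 peaks were called only there, against 43.8% of the whole list. The median member had 2 PU.1 peaks in the PuER clone (range 1 to 5), and the median protein-coding gene 0, with a mean of 0.833. Their median length was 13155 bp, against 17403 bp for all protein-coding genes. An EV-clone PU.1 peak lay within 20 kb of 5 of 9 members, against 23.7% of protein-coding genes. The 5 shared PU.1 peaks had centres 4 to 71 bp apart between the clones, with a median of 8 bp (23 bp over all shared PU.1 peaks).

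Most CEBPA peaks at the loci were shared between the clones. A CEBPA peak of the EV clone lay within 20 kb of 7 of 9 members, against 56.5% of protein-coding genes, and one of the PuER clone near 8 of 9, against 51.3%. Of the 20 CEBPA peaks in the EV clone, 4 were called only there (an interval of 5.73 to 43.7%), against 30.7% of the whole list. They belonged to Clec4a2, Clec5a and Clec12a, 3 of 9 genes, against 30.1% of protein-coding genes. Of 19 in the PuER clone, 3 were called only there (15.8%, 3.38 to 39.6), against 12.1%. These lay near Clec4a1, Clec4n and, through the shared window, Clec4d, again 3 of 9 genes, against 11.4%. With 9 genes the intervals of most of these shares include the genome-wide value, as the plot of gene shares shows.

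**Figure D3:**
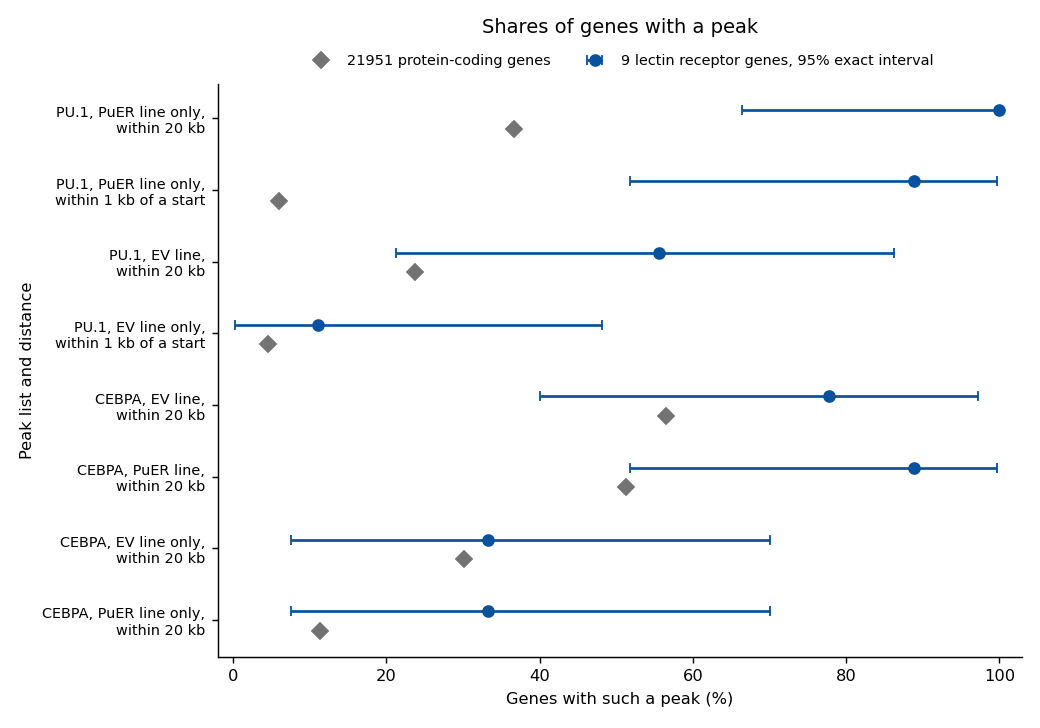
Percentage of genes with a peak of each kind, for the 9 lectin receptor genes (circles, with exact 95% intervals for counting error) and for 21951 protein-coding genes (diamonds). The circle lay at 88.9% and the diamond at 6.02% for PuER-only PU.1 peaks within 1 kb of a start. The 9 genes were chosen with earlier results of these data known. For the CEBPA peaks called in 1 clone only, the diamonds lay inside the intervals.

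The 31 regions fell into a few combinations. CEBPA of both clones alone made up 8 regions, PU.1 of the PuER clone alone 8, and CEBPA of the EV clone alone 4. All 4 libraries met in 3 regions. PU.1 of the PuER clone joined CEBPA of both clones in 3, at the starts of Clec4e and Clec12a and upstream of Clec5a. Thus 3 of 12 PuER-only PU.1 peaks overlapped an EV-clone CEBPA peak (25.0%, 5.49 to 57.2), against 18.1% of all such peaks. In the other direction, 3 of 3 CEBPA peaks called only in the PuER clone overlapped a PU.1 peak of that clone (an interval of 29.2 to 100%), against 42.6%. Of those called only in the EV clone, 0 of 4 did (0 to 60.2%), against 5.70%. Both EV-only PU.1 peaks, at Clec4d, overlapped an EV-clone CEBPA peak (15.8 to 100%), against 54.5% of all EV-only PU.1 peaks. These intervals include the shares of the whole lists.

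Short sequences under the PU.1 peaks were counted on both strands. GGAAGT, a common form of the ETS site, was found within 40 bp of the centre, the span searched here, in 4 of 17 PuER-clone PU.1 peaks (23.5%, 6.81 to 49.9), against 43.5% of the whole list, and all 4 were shared peaks. It was in 0 of 12 PuER-only peaks, against 42.9% of all PuER-only peaks. The GGAA core was present in 12 of 12, against 91.8%. GAGGAA, which contains this core and can overlap GGAAGT, was in 10 of 12 (83.3%, 51.6 to 97.9), against 44.2%. AAAGAGGAA was in 7 of 12 (58.3%, 27.7 to 84.8), against 10.2%. In 1 of these, the Clec5a peak 12017 bp from the start, it lay on the strand of the gene, unlike at the start sites. In windows 2000 bp away from the peaks of the whole list, GAGGAA was in 7.33% and AAAGAGGAA in 0.418%. GAGGAAGT, a longer PU.1 site that was planned, was in 0 of 12, against 15.5%. GAGGAA and AAAGAGGAA were not among the sequences planned for the search. AAAGAGGAA was chosen after the sequences of these same members had been read. Its share here describes these peaks, and its interval does not cover that choice.

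The same comparison was made for start-site peaks alone. Among 1365 PuER-only PU.1 peaks within 1 kb of the start of a protein-coding gene, 43.7% held GAGGAA and 9.38% AAAGAGGAA, against 7 of 8 and 6 of 8 at the members. The member shares are again a description, since AAAGAGGAA was taken from these same start sites. The bases after GAGGAA varied between members, with CC at Clec4a3, AT at Clec4n, and GG at both Clec5a start sites, and were GT at none. Genome-wide, 44 of 257 protein-coding genes with AAAGAGGAA in a RefSeq promoter had a PuER-only PU.1 peak within 1 kb of a start (17.1%, 12.7 to 22.3), and 1021 of 16282 without it (6.27%, 5.90 to 6.65). The 257 genes include the 6 members from which the sequence was taken, and all of these but Clec4d had such a peak. Their share is thus partly drawn from the members. Most promoters with the sequence had no such peak in these lists.

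**Figure D4:**
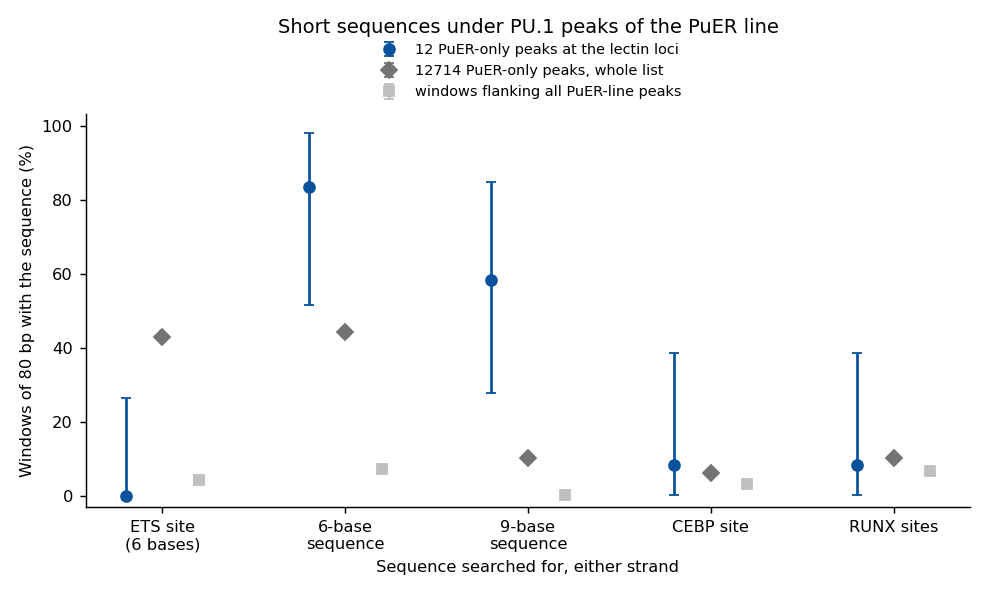
Percentage of 80-bp windows that held each short sequence on either strand: GGAAGT (ETS site), GAGGAA (6-base sequence), AAAGAGGAA (9-base sequence), TTGCNNAA (CEBP) and TGTGGT or TGCGGT (RUNX). Circles are the 12 PuER-only PU.1 peaks at the lectin loci, diamonds all 12714 such peaks and squares windows flanking all PU.1 peaks of the clone, with exact 95% intervals for counting error. The circle lay below the diamond for GGAAGT (0% against 42.9%) and above it for GAGGAA and AAAGAGGAA.

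CEBPA peaks at the loci held TTGCNNAA in 6 of 20 in the EV clone (an interval of 11.9 to 54.3%), against 35.6% of the whole list. RUNX sites were in 6 of 20 (the same interval), against 13.5%, and 4 of these 6 lay nearest to Clec4d, with the others at Clec4a2 and Clec5a. GGAAGT was in 4 of 20, against 9.95%. In the PuER clone the numbers were 6, 6 and 5 of 19, respectively, against 38.2%, 12.7% and 10.6% of the whole list.

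No pair of peak regions of different members aligned over 100 bp or more at 80% or more identity. Only the start-site peaks of Clec4a1 and Clec4a3 aligned over 51 bp, at 88.2%. This stretch holds the AAAGAGGAA of both genes, so these 2 occurrences lie in like sequence. Close copies of 2 Clec4a2 peaks did exist at a gene outside the set. Clec4a4, which lies between Clec4a3 and Clec4a2 and encodes another ITIM-bearing receptor of the family, had 0 peaks in all 4 libraries within 20 kb. The Clec4a2 start-site peak aligned to a stretch at −309 bp from the Clec4a4 start over 402 bp with 81.8% identity, and over the central 80 bp 72 of 81 aligned positions were identical (88.9%). The shared Clec4a2 CEBPA peak of the EV clone aligned to another stretch, 11122 bp downstream of the Clec4a4 start. This match ran over 400 bp at 80% identity, with no peak over the copy. The TTGCAAAA near the centre of the CEBPA peak reads TTGTAAAA in the copy. It is 1 of 4 TTGCNNAA sites in the central 200 bp of that peak. The other sites were not compared with the copy, and a link to the missing peak was not tested. The copy of the PU.1 peak kept 1 of the 2 AAAGAGGAA sequences. Both stretches are printed along the strand of the genes, so that the sequence appears as TTCCTCTTT, with this and each GGAA or TTCC in capitals. The stretch of Clec4a2 ends where its annotated 5′ UTR begins.
Clec4a2, peak in the PuER clone (chr6:123123239-123123315): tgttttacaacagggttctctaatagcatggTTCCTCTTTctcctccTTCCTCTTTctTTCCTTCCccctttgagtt
Clec4a4, no peak (chr6:122990016-122990096): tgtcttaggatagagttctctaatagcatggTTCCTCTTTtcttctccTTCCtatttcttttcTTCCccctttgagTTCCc

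The adaptors and signalling genes used by these receptors were described from a list of 14 genes. A PuER-only PU.1 peak lay within 20 kb of 13 of them, against 36.7% of protein-coding genes. The exception was Card9, the adaptor that links Syk to NF-kappa B. Within 1 kb of a start, 7 of 14 had one, against 6.02%: Fcer1g (FcR gamma), Tyrobp (DAP12), Hcst (DAP10), Syk, Ptpn6 (the phosphatase SHP-1), Inpp5d (the phosphatase SHIP-1) and Lyn. Fcer1g had 3 PU.1 peaks in the EV clone and 2 in the PuER clone, and Tyrobp 1 and 3. Syk had 0 PU.1 peaks in the EV clone and 5 in the PuER clone, and its CEBPA peaks numbered 3 and 8, of which 5 were called only in the PuER clone. Inpp5d and Plcg2 had the most PuER-only PU.1 peaks, 7 each. As at Clec4d, PU.1 was called at a start only in the EV clone for 4 of 14 (Card9, Bcl10, Plcg2 and Vav1), against 4.51%. CEBPA peaks of the EV clone lay near 14 of 14, against 56.5%. AAAGAGGAA was in 0 of the 11 RefSeq promoters held for this list, near the 1.55% of all protein-coding genes. Longer genes have larger windows, which was not adjusted for in these counts.

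The Spi1 gene, which encodes PU.1, had 2 PU.1 peaks within 20 kb in the EV clone and 3 in the PuER clone. The peak lists do not distinguish mutant from wild-type protein.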

How the data were processed

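PU.1 and CEBPA ChIP-Seq peaks were examined in 4 libraries of the 8 samples listed. The H3K27Ac and IgG samples were not used here. Per the labels, the submitters' processing notes name Bowtie2 2.0.6, MACS2 2.0.10 and mm10. The authors deposited peak coordinates only, as intervals of 400 bp. The calling threshold is not given in the sources used here. The depth behind each list is unknown. Peaks were assigned to genes by their centre, using GENCODE gene bodies and 20 kb either side, and classed by an overlap of at least 1 bp with the other clone's list. Sequences were read from GRCm38, whose chromosome lengths hold all peaks. Short sequences were sought as exact matches on both strands in the central 80 bp. Printed stretches leave out annotated UTRs beyond 30 bases. The stretch at 1 start site is not reported here. Peak regions were aligned with blastn 2.17.0.

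All 9 members were named, and for each further list up to 5 genes with the most PuER-only PU.1 peaks and those without one. Fcer1g, Tyrobp, Hcst, Ptpn6 and Bcl10 were named after their values were seen. The members and lists were chosen with earlier results of these data known. Overlap and site counting were tested on simulated peaks, with 100% recovered. Python 3.11.15, scipy 1.17.1 and pysam 0.24.0 were used. With 1 library per antibody and clone, no test was run. Alternatives were other windows, overlaps, gene models, searched widths and motifs.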

Additional observations from a re-analysis of the deposited data

How the results depend on the processing

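Of 58 alternative values for 13 results, 43 stayed within 1.5 times the reported count or within the counting interval of the reported share, and the other 15 are given here. With a window of 50 kb the loci held 11 PU.1 peaks in the EV clone and 31 in the PuER clone, 22 of them PuER-only, and 34 CEBPA peaks in the EV clone, 11 of them EV-only. With gene bodies alone they held 4 and 6 PU.1 peaks, 3 of them PuER-only, at 3 genes, with 10 and 8 CEBPA peaks and 1 PuER-only CEBPA peak. These windows are wider or narrower by construction, and the start-site peaks mostly lie just outside the gene body. The share of PuER-clone PU.1 peaks with a planned ETS site was 5.88% for GAGGAAGT and 100% for GGAA. At 50 bp, 1 pair of regions was alike. The start-site alternatives and the wider searches for AAAGAGGAA were chosen after seeing the data. With RefSeq starts 7 genes had a PuER-only PU.1 peak within 1 kb, and for Clec4n no RefSeq start was held. No paired analysis was possible because the result comes from no test and there is 1 library per group. The unknown depth limits every absence of a peak.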

Other observations

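Lectin genes that lie between and beside the members, in the same gene clusters, were counted in the same way. Of 8 neighbouring lectin genes, 5 had a PuER-only PU.1 peak within 20 kb, against 36.7% of protein-coding genes, and 0 had one within 1 kb of a start, against 6.02%. Olr1, which encodes the oxidised LDL receptor LOX-1, had the most, 4, followed by Clec1a, Clec1b and Clec9a with 3 each, in overlapping windows. The start-site peak of Clec7a is among those counted for Olr1. Clec4a4 and Clec4b1 had 0 peaks in all 4 libraries. AAAGAGGAA was present in the RefSeq promoters of Clec4b1 and Clec4b2, 2 of the 6 neighbours with a promoter entry, neither of which had a PuER-only PU.1 peak within 1 kb of a start.

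C-type lectin genes elsewhere in the genome were described from a list of 10. A PuER-only PU.1 peak lay within 20 kb of 3 of them and within 1 kb of the start of 2, against 36.7% and 6.02% of protein-coding genes. Mrc1, the mannose receptor, had 2 PuER-only PU.1 peaks within 20 kb and 0 in the EV clone. Clec10a and Mgl2, galactose-type lectins that lie next to each other, had 1 each, within 1 kb of a start, and 0 CEBPA peaks in either clone. The promoter of Mgl2 held AAAGAGGAA, the only one among the 8 of this list with an entry. The remaining 7 genes had 0 PuER-only PU.1 peaks.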
